A study of Homo sapiens with 6 samples.

Results

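The galectin genes LGALS1, LGALS3, LGALS8 and LGALS9 and the galectin-3 binding protein gene LGALS3BP were examined by RNA sequencing in T47D cells that express prolactin from a lentivirus. These 5 genes, taken by symbol from a table of 17891 genes, were chosen with the outcome of the same comparison in view. Their levels and fold changes are therefore given as descriptions, with no p-value for any of them. T47D is an established human cell line of luminal breast cancer. The PRL group (3 libraries) held T47D cells screened after transduction with PRL, the gene of the hormone prolactin, in the PLVX-puro lentivirus system, and is labelled Lentivirus PRL. The control group (3 libraries) held T47D cells with the same system, labelled PLVX and Lentivirus control. Both groups had been kept for 2 days in RPMI medium with fetal bovine serum and had received no further treatment. The series calls the 3 libraries of a group biological replicates. The sources used here do not give the promoter of the vector, whether the screened cells were a pool or a clone, or whether each library had its own transduction. In that respect the p-values measure the spread between these libraries, part of which may be technical.

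Galectins are lectins that bind beta-galactosides, above all the N-acetyllactosamine units of glycoproteins. They are made in the cytosol, leave the cell without a signal peptide and can crosslink receptors at the surface. LGALS1 encodes a galectin of the prototype class, which forms homodimers, and LGALS3 the chimera galectin, which carries a long N-terminal tail. LGALS8 and LGALS9 encode tandem-repeat galectins, in which a linker joins a pair of carbohydrate-recognition domains. LGALS3BP is not a galectin: it encodes a secreted, heavily glycosylated scavenger-receptor protein that galectins bind. LGALS9 and LGALS3BP are known as interferon-inducible genes.

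Sequence upstream of the genes is shown first for LGALS3BP and LGALS9, which were the members with higher levels in PRL cells. RefSeq windows on GRCh38.p14, from 250 bases before to 50 bases after an annotated start, were found for 4 of the 5 members. They were searched on both strands for GAAA, any 2 bases and GAAA again, the core letters of the interferon-stimulated response element. They were also searched for TTCNNNGAA, the letters of the gamma-activated site. LGALS1, the member without a window, was not searched. The first motif was present in the windows of LGALS3BP and LGALS9 and in neither the LGALS3 window nor the 3 LGALS8 windows. It was present in 3.57% of all 35116 windows and in 2.91% of the 16346 windows of genes tested here. TTCNNNGAA was in none of the windows of the 4 members searched, in 7.66% of all windows and in 6.2% of the windows of genes tested here. The windows below are printed 5′ to 3′ on the strand of the gene, with the 10 bases of the match to the first motif, or to its reverse complement, in capitals. The LGALS3BP window lies on the minus strand at chr17:78979874-78980173 and the LGALS9 window on the plus strand at chr17:27630938-27631237.
LGALS3BP: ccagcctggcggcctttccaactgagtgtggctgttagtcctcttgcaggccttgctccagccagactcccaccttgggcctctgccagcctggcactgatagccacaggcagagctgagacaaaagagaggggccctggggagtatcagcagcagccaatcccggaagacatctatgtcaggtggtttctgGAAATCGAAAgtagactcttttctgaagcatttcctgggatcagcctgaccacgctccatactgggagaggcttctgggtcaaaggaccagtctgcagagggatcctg
LGALS9: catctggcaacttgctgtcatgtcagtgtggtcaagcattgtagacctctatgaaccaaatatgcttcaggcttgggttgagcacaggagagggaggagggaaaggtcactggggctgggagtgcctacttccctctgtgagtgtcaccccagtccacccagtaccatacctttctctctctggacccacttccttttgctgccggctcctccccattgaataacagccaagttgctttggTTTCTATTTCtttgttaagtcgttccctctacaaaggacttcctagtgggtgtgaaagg

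Relative to the RefSeq start used for each window, the match began 58 bases upstream in LGALS3BP. In LGALS9 it lay on the reverse strand, began 9 bases upstream and ended on the first base from that start. GENCODE 29, whose gene bounds are given below, places the outermost start of both genes further upstream, so that both matches lie inside those bounds. LGALS9 has near-identical copies, LGALS9B and LGALS9C, whose longest coding sequences share 96.3% and 95.9% of aligned bases with that of LGALS9 in GENCODE 29. The stretch around the match is shown for the 3 genes, with the 10 bases of the motif in capitals. LGALS9 is at chr17:27631159-27631208 on the plus strand, LGALS9B at chr17:20467526-20467575 on the minus strand and LGALS9C at chr17:18476748-18476797 on the plus strand.
LGALS9: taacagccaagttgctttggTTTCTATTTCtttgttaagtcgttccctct
LGALS9B: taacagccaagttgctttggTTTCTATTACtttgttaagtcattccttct
LGALS9C: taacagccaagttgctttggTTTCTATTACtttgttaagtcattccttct

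LGALS9B and LGALS9C each differ from LGALS9 at 3 of these 50 bases. One difference falls in the capitals and is T9A in both copies, with positions counted from 1 at the first capital. The copies therefore held no match. Their transcripts were at the limit of detection in both groups, and LGALS9, which holds the match, was near that limit in controls (below). The part of the motif in these levels was not tested. A match of letters is a description and not evidence of binding.

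Libraries held 16211146 to 17402348 estimated gene counts, and 1 count stood for 0.0551 to 0.0678 CPM (counts scaled to library size, corrected for composition with edgeR's TMM factors). PRL itself had 8277, 8097 and 7789 counts in PRL libraries, against 3, 3 and 1 in controls. Of 14076 genes tested with edgeR, 62.9% had an adjusted p under 0.05, with 4554 genes higher and 4300 lower in PRL cells. Of 10 luminal epithelial markers, 9 lay at 5 CPM or more in every library, and TFF1 stayed under 1 CPM. Of these 10, 4 rose and 4 fell on the TMM scale, and their summed level was 16392 to 16893 CPM in PRL libraries and 20647 to 26634 CPM in controls. KRT18 and KRT8, the luminal keratin genes, fell with -0.73 and -0.60 on the log2 scale, and PGR, the progesterone receptor gene, rose with 0.85 (edgeR adjusted p = 6.6e-04, 0.0026 and 2.3e-04). ESR1 and KRT19, which fell with -0.35 and -0.47, did not pass on TPM (limma adjusted p = 0.457 and 0.990). EPCAM, not called with TMM, was called higher on TPM (0.55, limma adjusted p = 3.4e-04). FOXA1 rose with 0.49 (edgeR adjusted p = 0.0071), a call kept under every setting and with any library left out. The calls of GATA3 and XBP1, which rose with 0.23 and 0.31, were each lost when any PRL library was left out. The GATA3 call was also lost without control replicate 2, with the size factors of DESeq2, without the filter on low counts and with the replicate number as a block. Of 5 basal markers 3 were tested: TP63 rose, ACTA2 fell and MYLK did not pass, while KRT5 and KRT14 stayed under 1 CPM. The part of these shifts in the galectin levels was not tested. Control libraries varied more among themselves (chi-square of 12.7 to 24.4 per gene for pairs) than PRL libraries (1.66 to 2.17). The scaling matters for small differences. Over all genes the median log2 ratio of PRL to control was 0.01 on the TMM scale, 0.26 when scaled by library totals, 0.20 on FPKM and 0.39 on TPM, where FPKM and TPM are levels per transcript length. Of the genes called by edgeR, 51.4% were higher in PRL cells with TMM and 72.9% with library totals. With limma on TPM, which also changes the test and the genes tested (12494), it was 83.7%. TPM is used below for levels and TMM for fold changes.

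**Figure D1:**
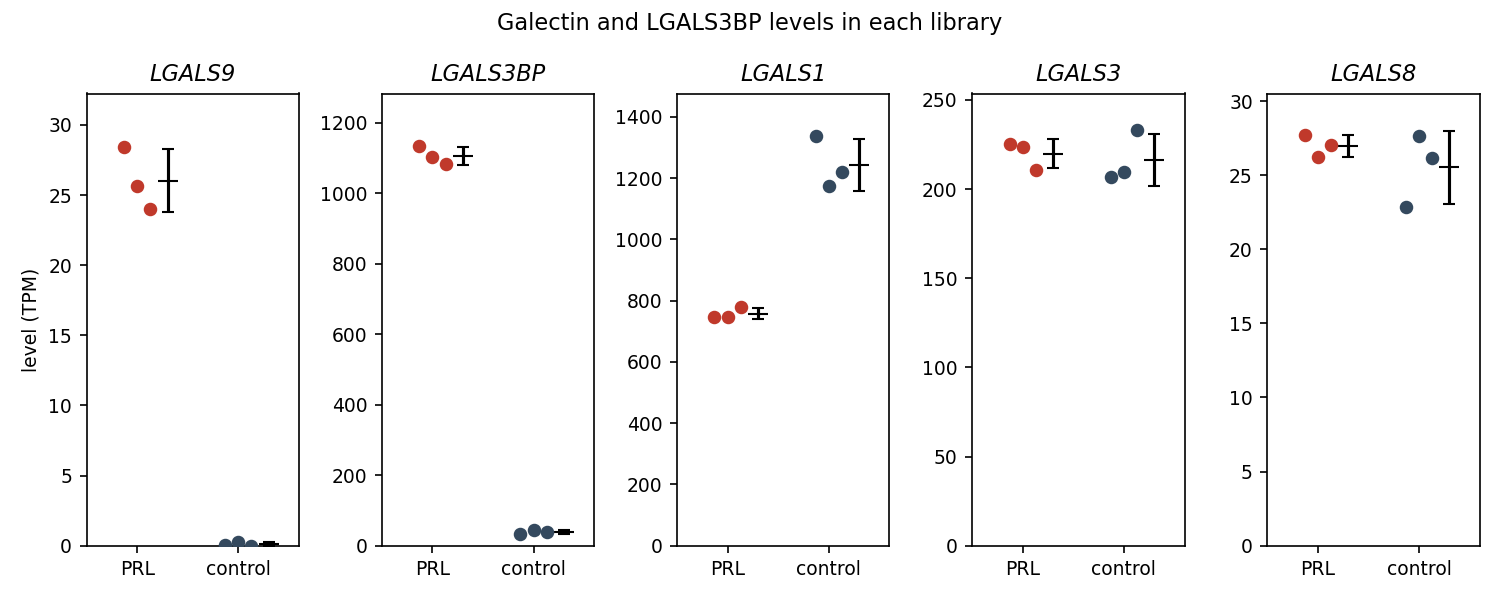
Level in TPM (vertical axes, from 0, each gene on its own scale) of the 5 genes in each PRL and control library. Points are libraries in replicate order and the bars beside them show the mean and SD of 3; LGALS9 and LGALS3BP were high in all PRL libraries, LGALS1 was lower in PRL cells, and LGALS3 and LGALS8 overlapped on this scale.

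Across the family, PRL cells had far more LGALS9 and LGALS3BP transcript than controls and 0.609 times as much LGALS1 transcript in TPM. LGALS3 and LGALS8 were lower on the TMM scale, with log2 fold changes of -0.43 and -0.53. Both were below 0 under every scaling tried except TPM, where they lay slightly above 0 and the groups overlapped. All 5 members were among the 62.9% of tested genes called, and their groups did not overlap in CPM, as in 69.5% of tested genes. The members were chosen on this comparison, so these counts are no test of them and nothing is read from them. The median log2 fold change of the members was -0.43, against 0.01 for all genes tested.

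LGALS9 (NCBI gene 3965, GRCh38 chr17:27629798-27649560, plus strand, 10 exon blocks) encodes a ligand of several immune receptors, among them TIM-3. Its level was 28.4, 25.7 and 24.0 TPM in PRL libraries, against 0.06, 0.29 and 0 TPM in control libraries. Estimated counts were 463.86, 431.44 and 401.39 in PRL libraries and 1, 4.53 and 0 in controls, where a count of 0 allows up to 3 counts or 0.187 CPM. All PRL libraries thus lay far above all controls, and in controls the gene was near the limit of detection. Over rounded counts the ratio of PRL to control was 187, with an exact 95% interval of 85.5 to 509.6 that covers counting error only. The fitted log2 fold change was 7.46 (SE 0.31), which ranked 19 from the top among the 14076 tested genes. Control replicate 2 held 5 of the 6 rounded control counts, and without it the fitted value was 9.24.

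Reads of LGALS9 could be shared with its copies, so its level was set beside theirs. LGALS9B had 1.14, 0 and 0 estimated counts in PRL libraries and 0 in every control library. LGALS9C had 0, 0.56 and 0.61 in PRL libraries, against 0, 1.47 and 1 in controls. As far as the authors' counting could divide such reads, nearly all of the signal in PRL cells was assigned to LGALS9. Exons of AC015688.4, annotated as protein-coding on the same strand, cover 5.15% of the LGALS9 exon bases. That gene has no row among the 17891, and strand could not separate its reads there. The estimated counts of LGALS9 were fractional in 4 of 6 libraries and those of LGALS8 in all 6. Those of LGALS1, LGALS3 and LGALS3BP were whole in all 6.

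LGALS3BP (NCBI gene 3959, chr17:78971238-78980109, minus strand, 8 exon blocks) lies on the same chromosome as LGALS9. It had 1132, 1104 and 1081 TPM in PRL libraries, against 34.2, 45.4 and 38.8 TPM in controls. The 3 PRL libraries differed by under 5 percent of their mean, and the lowest of them stood far above the highest control. On the TMM scale the level was 1318 ± 1.78 CPM in PRL cells and 64.1 ± 5.57 CPM in controls (SD, n = 3 each), a log2 fold change of 4.36 (SE 0.10) or 20.5-fold. In TPM the ratio of the means was 28.0. In TPM the gene held rank 138 of 17891 in PRL cells, against rank 2962 in controls.

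LGALS1 (NCBI gene 3956, chr22:37675608-37679806, plus strand, 6 exon blocks), known as a suppressor of T cells and a product of stromal and mesenchymal cells, was the most abundant galectin in both groups. It had 747, 746 and 778 TPM in PRL libraries, against 1337, 1173 and 1219.6 TPM in controls. The highest PRL library lay below the lowest control, and control replicate 1 was the highest of all. The log2 fold change was -1.18 (SE 0.12) on the TMM scale, where levels averaged 200.9 ± 8.90 CPM in PRL cells and 455.5 ± 83.3 CPM in controls (SD, n = 3 each). Without control replicate 1 it was -1.02. It was lower in PRL cells under every scaling tried, from -1.20 with the size factors of DESeq2 to -0.71 on TPM.

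LGALS3 (NCBI gene 3958, chr14:55124110-55145413, plus strand, 7 exon blocks), the galectin for which LGALS3BP is named, did not separate the groups in TPM. It had 225, 223.8 and 210.45 TPM in PRL libraries, against 206.5, 209.6 and 233 TPM in controls, and these ranges overlap. On the TMM scale it was lower in PRL cells, at 110.6 ± 2.40 CPM, against 149 ± 12.6 CPM in controls (SD, n = 3 each); the log2 fold change was -0.43 (SE 0.08). On TPM the log2 fold change was 0.023 (SE 0.07), where the median gene stood at 0.39. Relative to that median LGALS3 lay at -0.37 on TPM and at -0.44 on the TMM scale.

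LGALS8 (NCBI gene 3964, chr1:236518000-236552981, plus strand, 14 exon blocks), whose product detects damaged endosomes and lysosomes from the cytosol, did not separate the groups in TPM either. It had 27.7, 26.2 and 27.0 TPM in PRL libraries, against 22.8, 27.6 and 26.2 TPM in controls, so the groups overlap. On the TMM scale it had 76.6 ± 1.17 CPM in PRL cells and 110.3 ± 6.61 CPM in controls (SD, n = 3 each); the log2 fold change was -0.53 (SE 0.07), whereas on TPM the value was 0.081 (SE 0.10). The length implied by the deposited counts, FPKM values and library totals was 5154, 5168 and 5066 bases in PRL libraries, against 5818, 5752 and 5559 bases in controls. The PRL libraries thus had the shorter implied LGALS8 transcript without overlap, a difference that enters FPKM and TPM and for which no test was run. The implied length of LGALS1 was 479 bases in every library. That of LGALS9 ran from 1667 to 1689 bases in PRL libraries. It was 1437 and 1378 bases in control replicates 1 and 2, which rest on 1 and 4.53 estimated counts.

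The counts of LGALS8 carry a further limit. Exons of HEATR1, a ribosome biogenesis gene on the opposite strand, cover 21.6% of its exon bases, and LGALS8-AS1 and another antisense gene cover 6.93% and 3.51%. With the use of strand not given in the sources used here, reads in these stretches cannot be assigned. HEATR1 rose in PRL cells by 0.44 on the log2 scale (SE 0.16, edgeR adjusted p = 0.0342), opposite in sign to LGALS8 on that scale.

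**Figure D2:**
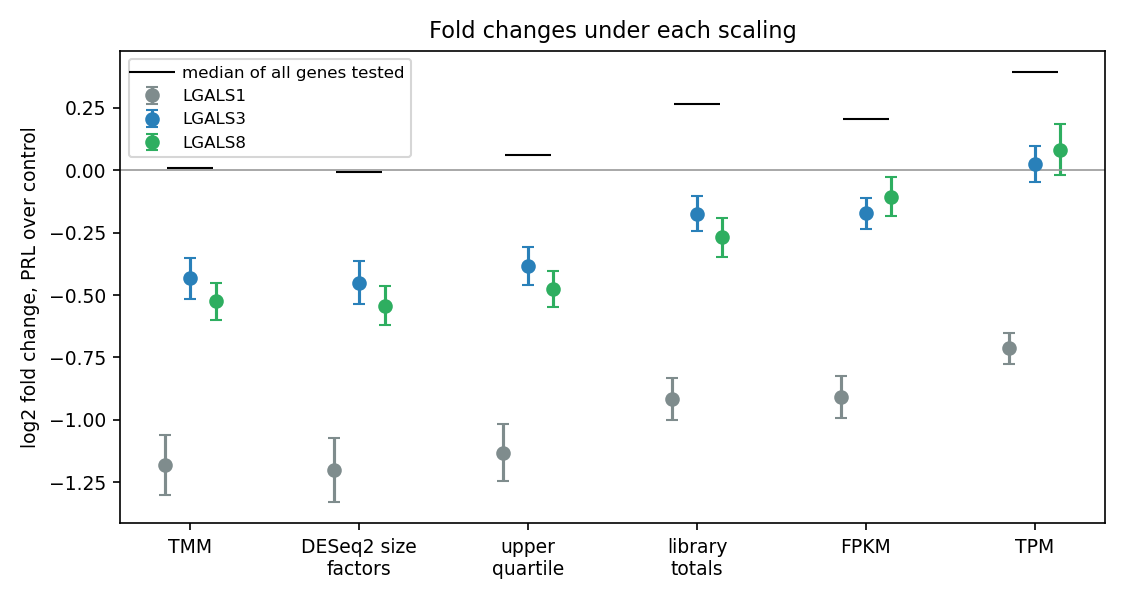
Log2 fold change of PRL over control (vertical axis) for LGALS1, LGALS3 and LGALS8 under 6 scalings (horizontal axis), with bars of 1 SE and black dashes at the median of all genes tested. LGALS1 was below 0 throughout, while LGALS3 and LGALS8 moved from -0.43 and -0.53 with TMM to 0.023 and 0.081 on TPM, always below the median gene.

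The makeup of the galectin transcripts was then compared per length, with LGALS3BP kept apart. The 4 galectins summed to 1029.9 ± 8.73 TPM in PRL cells and 1485 ± 78.1 TPM in controls (SD, n = 3 each). LGALS1 made up 73.5% ± 1.17 of this sum in PRL cells and 83.7% ± 1.51 in controls, and LGALS3 21.3% ± 0.946 in PRL cells and 14.6% ± 1.31 in controls. LGALS8 held 2.62% ± 0.0656 in PRL cells and 1.73% ± 0.253 in controls. LGALS9 held 2.53% ± 0.229 in PRL cells and 0.00813% ± 0.0109 in controls. These ratios within a library do not depend on the scaling between libraries. They do depend on the implied lengths, which differed between the groups for LGALS8 and LGALS9. By estimated counts, not per length, LGALS8 held 18.6% in PRL cells and 15.6% in controls.

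The order of the members differed between the groups. In PRL cells the levels in TPM ran from LGALS3BP over LGALS1 and LGALS3 to LGALS8 and LGALS9, and the last pair overlapped, with LGALS9 at 0.964 ± 0.0705 times LGALS8. In controls they ran from LGALS1 over LGALS3, LGALS3BP and LGALS8 to LGALS9, with no overlap between neighbours. There was 5.03 ± 0.103 times as much LGALS3BP as LGALS3 transcript in PRL cells and 0.183 ± 0.0292 times as much in controls. The ratio of LGALS1 to LGALS3 was 3.45 ± 0.213 in PRL cells and 5.77 ± 0.639 in controls.

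**Figure D3:**
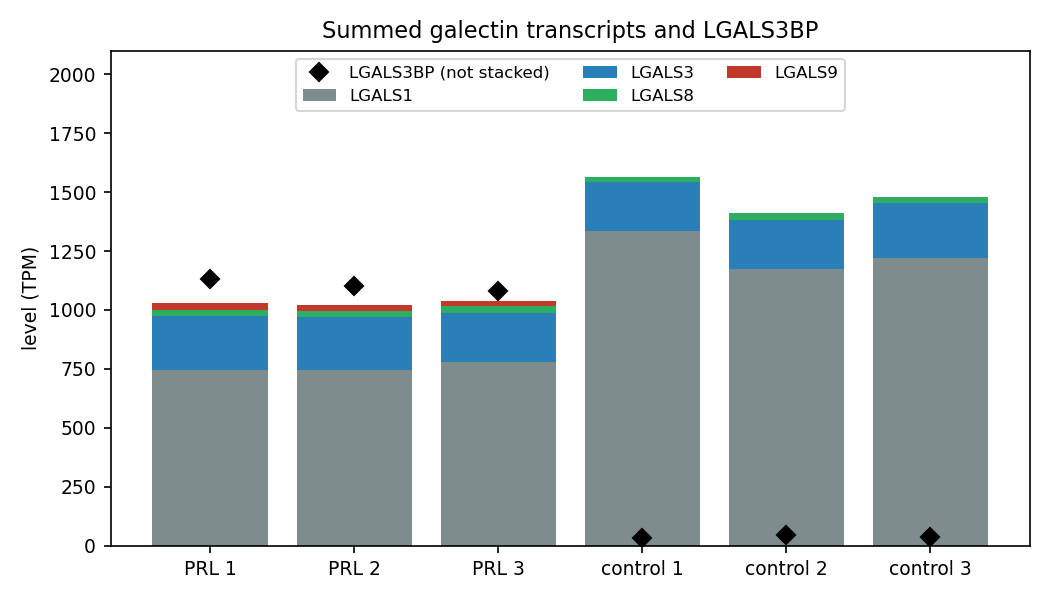
Level in TPM (vertical axis) of LGALS1, LGALS3, LGALS8 and LGALS9, stacked, in each library (horizontal axis), with LGALS3BP as a diamond outside the stack. The stacks reach 1022 to 1039 TPM in PRL libraries and 1410.5 to 1566 TPM in controls, and LGALS3BP lies above the stack in PRL libraries and at 34.2 to 45.4 TPM in controls.

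The other galectin genes in the table were nearly silent, apart from LGALSL. LGALSL, which encodes a galectin-like protein without known lectin activity, was the single other family gene that passed the filter on low counts. Its level was 13.4 ± 0.763 CPM in PRL cells and 12.9 ± 0.304 CPM in controls (SD, n = 3 each). It was not called by edgeR (log2 fold change 0.06, SE 0.10, unadjusted p = 0.573, adjusted p = 0.629), DESeq2 or limma-voom, but was called higher with library totals, on FPKM and on TPM, and its adjusted p ran from 0.0103 to 0.953 over all settings. LGALS4, an intestinal galectin, had 4, 2 and 4.98 estimated counts in PRL libraries, against 5, 6 and 4 in controls. LGALS12, a galectin of fat cells, had 4, 3 and 5 in PRL libraries, against 5, 2 and 1 in controls. LGALS2 had 1, 0 and 2 in PRL libraries, against 3, 1 and 2 in controls. LGALS14, a placental galectin, and GRIFIN, a lens protein of the family, had at most 1 count in any library. LGALS7, LGALS7B, LGALS13, LGALS16 and CLC were looked for and had no row under these symbols among the 17891 genes.

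**Figure D4:**
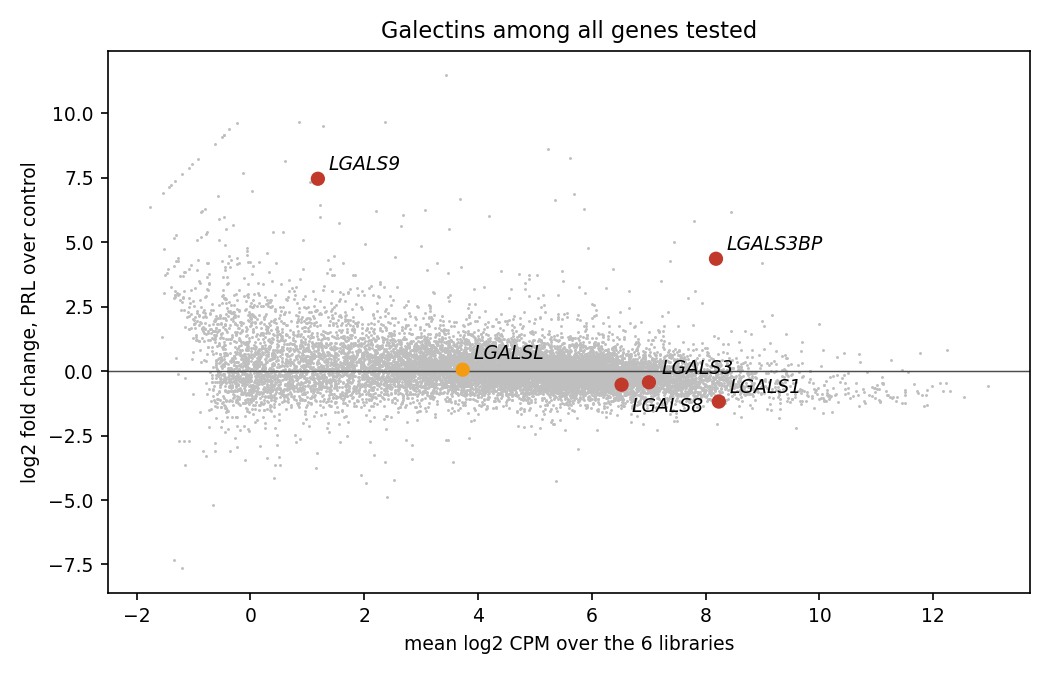
Log2 fold change of PRL over control (vertical axis) against mean log2 CPM over 6 libraries (horizontal axis) for 14076 tested genes in grey, with the 5 members in red and LGALSL in orange. LGALS9 (7.46) and LGALS3BP (4.36) stand above the cloud, and LGALS1 lies at -1.18 among the abundant genes.

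Genes that act with galectins were grouped into lists of ligands, of enzymes that build or cap their glycans, and of partners inside the cell. Each list was read against the background of 62.9% of tested genes called, 32.4% higher and 30.5% lower, and no list was tested as a set. The list counts on TPM have another background: with limma on TPM, 7113 of 12494 genes tested were higher and 1381 lower. Of 27 tested galectin-binding glycoproteins 12 rose and 5 fell, 63.0% in all, with a median log2 fold change of 0.09. On TPM 15 rose and none fell. On the TMM scale the share called was close to that of all genes.

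FN1, which encodes the matrix protein fibronectin, rose to 88.4 ± 1.03 CPM in PRL cells, against 20.6 ± 5.64 CPM in controls (log2 fold change 2.1, SE 0.15, edgeR adjusted p = 1.5e-06). ALCAM, an adhesion molecule that galectin-8 binds, rose to 125 ± 3.19 CPM in PRL cells, against 64.9 ± 1.84 CPM in controls (0.95, edgeR adjusted p = 2.1e-06). ITGA5, the integrin chain that pairs with ITGB1 as the fibronectin receptor, rose by 1.24 on the log2 scale (edgeR adjusted p = 7.0e-06). CEACAM5, the carcinoembryonic antigen gene, rose with 2.47 (edgeR adjusted p = 3.0e-06), although it shares sequence with other CEACAM genes. VSIR, an immune checkpoint receptor gene whose product binds galectin-9, rose to 11.5 ± 1.36 CPM in PRL cells, against 1.33 ± 0.842 CPM in controls (3.10, edgeR adjusted p = 9.1e-06). HAVCR2, the TIM-3 gene, was singled out after its values were seen: it had 1.79 ± 0.526 CPM in PRL cells and 1.82 ± 0.599 CPM in controls, and its log2 fold change of -0.02 (SE 0.31) did not pass edgeR (adjusted p = 0.958).

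Enzymes that build the N-acetyllactosamine and core glycans bound by galectins numbered 22 tested genes, of which 11 rose and 5 fell (72.7% called, median log2 fold change 0.32). On TPM 12 rose and 1 fell. B4GALT1, the main galactosyltransferase of N-acetyllactosamine, rose to 451.5 ± 8.74 CPM in PRL cells, against 219.8 ± 11.5 CPM in controls (log2 fold change 1.04, SE 0.08, edgeR adjusted p = 2.2e-06). Its relative B4GALT2 fell with -0.63 (edgeR adjusted p = 9.0e-05). FUT8, which adds the core fucose of N-glycans, rose to 15.3 ± 2.19 CPM in PRL cells, against 5.85 ± 0.641 CPM in controls (1.39, edgeR adjusted p = 1.9e-05). GCNT1, which starts the core 2 branch of O-glycans, rose to 1.94 ± 0.261 CPM in PRL cells, against 0.238 ± 0.101 CPM in controls (2.99, edgeR adjusted p = 5.5e-05), with 2 to 5.03 estimated counts per control library.

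Sialic acid caps can hide galactose from galectins, and the genes that make or transfer them included 11 tested members, of which 7 rose and 1 fell (72.7% called, median log2 fold change 0.36). On TPM 8 rose and none fell. ST6GAL1, whose alpha-2,6 cap blocks binding of galectin-1, rose to 105.9 ± 1.36 CPM in PRL cells, against 43.9 ± 9.42 CPM in controls (log2 fold change 1.27, SE 0.13, edgeR adjusted p = 1.7e-05). ST3GAL1, which caps core 1 O-glycans, rose to 62.8 ± 1.32 CPM in PRL cells, against 27.2 ± 0.658 CPM in controls (1.21, SE 0.07, edgeR adjusted p = 5.0e-07). ST6GALNAC4 and ST6GALNAC2, which sialylate O-glycans, rose with 0.87 and 0.41 (edgeR adjusted p = 1.6e-05 and 0.00156). The gene that fell, named after its value was seen, was ST3GAL2, a sialyltransferase, with -0.38 (SE 0.13, edgeR adjusted p = 0.0228). That call was lost without PRL replicate 2 or 3 or control replicate 1 or 2.

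Partners of galectins inside the cell numbered 20 tested genes, of which 9 rose and 4 fell (65.0% called, median log2 fold change 0.21). On TPM 15 rose and 1 fell. ULK1, the kinase that starts autophagy, rose to 147 ± 3.40 CPM in PRL cells, against 84.3 ± 9.83 CPM in controls (log2 fold change 0.80, SE 0.09, edgeR adjusted p = 3.3e-05). CALCOCO2, the autophagy receptor recruited by galectin-8 and singled out after its values were seen, rose with 0.53 (SE 0.09, edgeR adjusted p = 6.0e-04). HRAS, a Ras protein that galectin-1 holds at the membrane, fell to 41.7 ± 1.63 CPM in PRL cells, against 126.6 ± 28.9 CPM in controls (-1.60, SE 0.14, edgeR adjusted p = 7.0e-06). BCL2, the apoptosis inhibitor to which galectin-3 has been reported to bind, fell to 0.224 ± 0.0601 CPM in PRL cells, against 2.54 ± 0.657 CPM in controls (-3.47, SE 0.37, edgeR adjusted p = 2.4e-05), with 4, 3 and 5 counts in PRL libraries. GEMIN4, a splicing factor partner of galectin-1 and galectin-3, fell with -0.57 (edgeR adjusted p = 1.3e-04) but did not pass on TPM (limma adjusted p = 0.439), and its adjusted p over all settings ran from 5.6e-07 to that value.

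Since LGALS9 and LGALS3BP are interferon-inducible, 10 interferon-response genes were set beside them. All 10 rose, where 32.4% of tested genes did, and their median on the log2 scale was 4.69, above the 4.36 of LGALS3BP and below the 7.46 of LGALS9. The list had been chosen with its direction in these data known. IRF1, an interferon regulatory factor, rose to 24.7 ± 1.66 CPM in PRL cells, against 8.33 ± 2.48 CPM in controls (1.57, SE 0.18, edgeR adjusted p = 3.6e-05). These values move with LGALS9 and LGALS3BP, and their part in them was not tested.

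**Figure D5:**
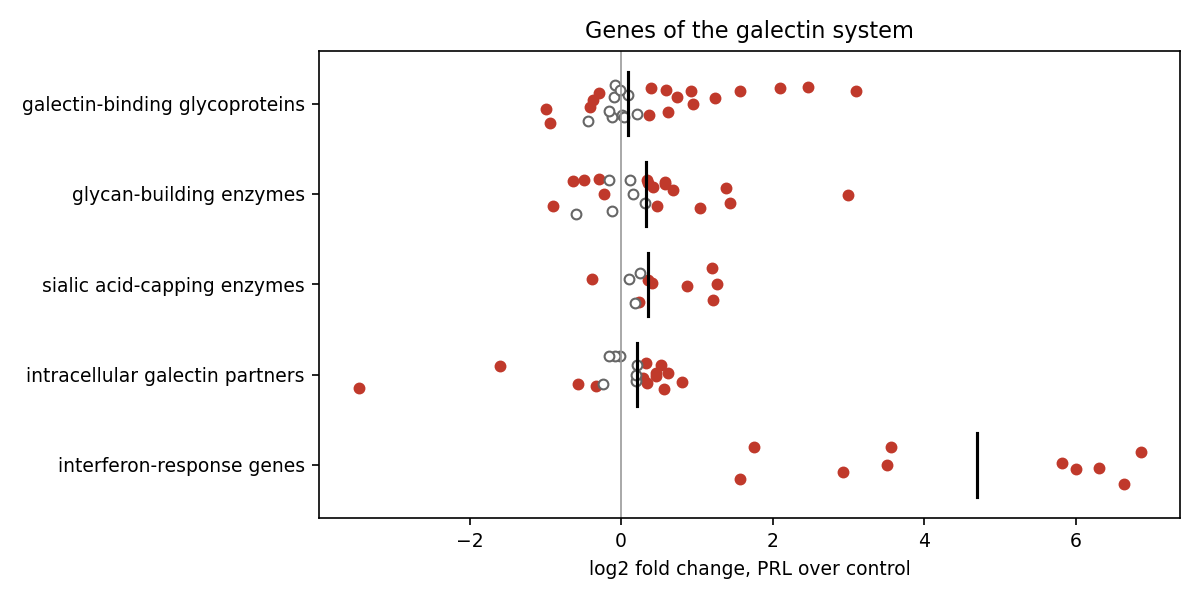
Log2 fold change of PRL over control (horizontal axis) of tested genes in 5 lists (vertical axis, points spread for visibility). Red points have an edgeR adjusted p under 0.05, open points do not, and black lines are list medians: 0.09, 0.32, 0.36 and 0.21 for the galectin lists from the top, and 4.69 for the interferon-response genes.

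Fibroblasts and leukocytes are rich in LGALS1 and LGALS9, so their markers were read in the same libraries. The 6 fibroblast markers summed to 71.4 to 72.1 CPM in PRL libraries and 42.6 to 59.2 CPM in controls, nearly all of it COL1A1, and the other 5 stayed at or under 0.330 CPM in every library. The 8 leukocyte and endothelial markers summed to 8.64 to 10.4 CPM in PRL libraries and 7.67 to 10.6 CPM in controls, and none reached 5 CPM in every library. Of the 6 tested, 2 rose and 1 fell. CD14, a monocyte marker, had 0.913 ± 0.102 CPM in PRL cells and 0.365 ± 0.181 CPM in controls (1.30 on the log2 scale, SE 0.39, edgeR adjusted p = 0.0142). That call was lost without PRL replicate 3 or control replicate 1 (adjusted p = 0.052 in edgeR for both). With all libraries CD14 did not pass in DESeq2 (adjusted p = 0.0692). CD3E, a T cell marker, had 1.06 ± 0.0205 CPM in PRL cells and 0.541 ± 0.204 CPM in controls (0.97, SE 0.35, edgeR adjusted p = 0.0306). Leaving out any library except control replicate 2 ended that call (edgeR adjusted p of 0.0513 to 0.0808). With all libraries CD3E did not pass in DESeq2 either (adjusted p = 0.135). LYZ, the lysozyme gene, had 1.53 ± 0.497 CPM in PRL cells and 2.94 ± 0.549 CPM in controls (-0.94, SE 0.27, edgeR adjusted p = 0.0119). The LYZ call was lost without PRL replicate 1 or control replicate 1 (edgeR adjusted p = 0.0543 and 0.0519) and on TPM (limma adjusted p = 0.0781). PTPRC, the pan-leukocyte marker, had 0.950 ± 0.247 CPM in PRL cells and 0.925 ± 0.0828 CPM in controls (SD, n = 3 each) and did not pass the test. CDH5, an endothelial marker, had 1, 0 and 1 counts in PRL libraries and 0 in every control library. In these bulk libraries, fewer cells of a kind and less RNA per cell cannot be told apart. The part of such cells in the LGALS1 and LGALS9 levels was not tested.

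Genes with the most similar profiles were taken as the 3 with the smallest Euclidean distance to each member over the 6 libraries in log2 CPM, each profile centred on its mean. Since the difference between the groups makes up most of each profile, likeness is mainly a likeness in that difference. LGALS9 was nearest to OASL, IFI6 and ISG15, at distances of 0.975, 0.991 and 1.15, and these genes had log2 fold changes of 6.67, 6.16 and 6.31. LGALS3BP was nearest to PIP, the prolactin-inducible protein gene (0.235, log2 fold change 4.20), and to SYCP1 and TEX19, germ cell genes (0.353 and 0.363). TEX19 had a log2 fold change of 4.21. SYCP1 had no counts in controls, so that its profile and its place here depend on the prior count of 2, and its fitted log2 fold change of 8.23 is no bound. Against a floor of 3 counts per library it was at least 11.5-fold higher in PRL cells. LGALS1 was nearest to the ribosomal protein genes RPS27A and RPS3 and to NME2, a nucleoside diphosphate kinase gene, at distances of 0.0703, 0.0759 and 0.0704, with log2 fold changes of -1.16, -1.24 and -1.16. Reads of these 3 genes can be shared with pseudogenes or close relatives.

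LGALS3 was nearest to PSMD7, a proteasome subunit gene, MRPL35, a mitochondrial ribosomal protein gene, and EIF4A1, a translation initiation helicase gene, at distances of 0.0585, 0.0614 and 0.069. LGALS8 was nearest to COG4, a Golgi tethering gene, PPP6R3, a phosphatase subunit gene, and CDC25B, a cell cycle phosphatase gene, at distances of 0.0372, 0.0519 and 0.0527. On the log2 scale these 6 genes lay between -0.51 and -0.42 in PRL cells relative to controls. The values of EIF4A1 and PSMD7 were above 0 on TPM. The distances around LGALS9 were larger than those around the other members, and its low control counts make its profile the least precise of the 5.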

How the data were processed

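Total RNA of 6 T47D libraries had been extracted with Trizol, per the labels. HISAT2 2.1.0, Bowtie2 2.3.4.3 and GRCh38.p13 are named in the submitters' processing notes. How reads were counted, and whether by strand, is not given in the sources used here. The authors deposited estimated counts, FPKM and TPM for each gene in each library, per the file headers. Of the counts 44.1% to 45.9% were not whole, and all were rounded here. The authors' group means were not used.

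Libraries were grouped by title. The test was edgeR 4.0.16 in R 4.3.3 (quasi-likelihood, robust, TMM, filter by group), with Benjamini-Hochberg adjustment over 14076 genes and a threshold of 0.05; SE is the absolute log2 fold change over the root of F. On simulated counts, in which a small part of the genes rose or fell at random, it was checked that large known changes were recovered. Those counts held no broad shift between the groups, so the check cannot judge the scalings or small changes such as those of LGALS3 and LGALS8. Members, lists and the naming rule were chosen with earlier results of these data known. Genes named were the members, other galectin genes, in each list the 4 with the smallest adjusted p among those past the threshold without overlap plus the one with the largest change, IRF1, and the 3 nearest profiles per member; a further gene under this rule is not reported here. Log2 CPM used a prior count of 2. Alternatives were other scalings and filters, DESeq2 1.42.0, limma 3.58.1 (voom, or a trend on log2 of FPKM or TPM plus 1, for genes whose mean reached 1), the replicate number as a block, and each library left out. Coding sequences were the longest open reading frames, aligned with Biopython 1.88. Coordinates and exons are from GENCODE 29 and promoter windows from RefSeq.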

Additional observations from a re-analysis of the deposited data

How the results depend on the processing

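Scalings that do not correct for composition moved the most values, and the cause was not tested. With library totals the log2 fold changes were -0.92 for LGALS1, -0.17 for LGALS3, 4.61 for LGALS3BP and -0.27 for LGALS8. On FPKM they were -0.91, -0.17, 4.57 and -0.11, with LGALS9 at 3.96, and on TPM -0.71 for LGALS1, 0.023 for LGALS3, 4.78 for LGALS3BP, 0.081 for LGALS8 and 4.60 for LGALS9, so LGALS3 and LGALS8 changed sign there; the pseudocount of 1 lowers the LGALS9 values by construction. Genes lower numbered 2394 with library totals, 2360 on FPKM and 1381 on TPM, and 7113 were higher on TPM. LGALSL made the count of other galectins higher 1 in these 3 settings. With library totals, 1 glycoprotein, 2 glycan-building and 0 capping genes were lower; on FPKM 0, 3 and 0, with 2 intracellular partners; on TPM 0, 1 and 0, with 1 intracellular partner lower and 15 higher. With upper quartile scaling, DESeq2 and the replicate block, 3 glycan-building genes were lower. By estimated counts, not per length, LGALS1, LGALS3, LGALS8 and LGALS9 made up 48.7%, 26.8%, 18.6% and 5.86% of the 4 galectins in PRL cells, and LGALS1, LGALS3 and LGALS8 63.4%, 21.0% and 15.6% in controls. Leaving out 1 library gave 3 to 6 lower glycoprotein genes, 3 to 6 lower glycan-building genes and 0 to 1 lower capping genes; the single capping call, ST3GAL2, was lost without PRL replicate 2 or 3 or control replicate 1 or 2, and the glycoprotein count was 3 without PRL replicate 1. The glycan-building count was 3 without PRL replicate 1 or 3 or control replicate 1. LGALS9 ran from 6.90 to 9.24 with 1 library left out. Single genes reversed on TPM were EIF4A1 (0.036) and PSMD7 (0.042). Of 554 values for 35 named genes under these settings, 540 kept direction and side of the threshold. Most of these genes were named for a small adjusted p or a near profile, which favours that outcome. Of the member fold changes, galectin shares and gene counts, 284 values stayed the same, 50 moved and 2 reversed. Here a count moved if it changed by over 1.5 times, and a fold change or share if it shifted by its SD or more. Same-numbered libraries deviated together with correlations of -0.11, 0.04 and -0.06, so the numbers were not taken as pairs. The replicate block changed no other listed result by over 1.5 times, with 4423 genes higher and 4108 lower. Depth limits LGALS9 in controls and the family genes with a few counts.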
